A study of Flaveria angustifolia and Flaveria bidentis and Flaveria brownii with 21 samples.

Results

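Starch is made in the leaf chloroplast by a short series of enzymes, and 10 Arabidopsis loci that encode its main steps were followed in leaves of Flaveria. The loci were taken by their identifiers: PGM1 (AT5G51820), ADG1 (AT5G48300), APL1 (AT5G19220), APL2 (AT1G27680), APL3 (AT4G39210), SS1 (AT5G24300), SS2 (AT3G01180), SS3 (AT1G11720), SS4 (AT4G18240) and GBSS1 (AT1G32900). All 10 were among the 20551 loci measured. Flaveria, in the daisy family, holds C3 species, C4 species and many steps between them. The series has 21 leaf samples. They include 18 Flaveria libraries, from 11 species, and 3 libraries of out-group plants, not analysed here. Juvenile leaves, just starting to expand, gave 10 libraries, and mature leaves, the newest to be fully expanded, gave 8. Both stages were sequenced in 7 species, which were F. cronquistii, F. pringlei, F. angustifolia, F. pubescens, F. brownii, F. bidentis and F. trinervia. F. sonorensis, F. palmeri and F. vaginata had juvenile leaves only, and F. kochiana mature leaves only. All plants grew in a greenhouse, and each library pooled leaves of several of them.

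The labels do not give the photosynthetic type, which is textbook knowledge. The C3 species are F. pringlei and F. cronquistii, and the C3-C4 intermediates are F. sonorensis, F. angustifolia and F. pubescens. The C4-like species are F. vaginata, F. brownii and F. palmeri, and the C4 species are F. trinervia, F. bidentis and F. kochiana. Here C3-type means the 5 C3 and C3-C4 species and C4-type the 6 C4-like and C4 species. All C4-type species but F. brownii belong to clade A of the genus, and F. brownii and F. pubescens to clade B, again from textbook knowledge, so type and ancestry cannot be told apart for most species. Each species and stage had 1 library, so spread is between species, and variation among plants of one species is not measured. P-values of the type comparisons over both stages rest partly on libraries, since 7 species enter with 2.

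In Arabidopsis, plastid phosphoglucomutase (PGM1) makes glucose 1-phosphate, which ADP-glucose pyrophosphorylase turns into ADP-glucose, the sugar donor of starch. That enzyme joins small subunits (ADG1) with large subunits (APL1, APL2 and APL3) and is held to be the regulated step of the pathway. Soluble starch synthases (SS1 to SS4) extend the branched polymer amylopectin or start granules, and the granule-bound synthase GBSS1 makes the nearly linear amylose. In C4 leaves that carry out the cycle in 2 cell types, starch is usually stored mainly in bundle sheath chloroplasts, next to the veins.

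Values are RPM, the Flaveria reads assigned to an Arabidopsis locus out of every 1e+06 reads of the library assigned to any measured locus. The libraries held 5.40 to 9.15 M such reads each, as recovered from the values (M, 1e+06). Reads not assigned to a locus are not counted in them. The lowest member value was 11.5 RPM, which was 71 reads. RPM is not divided by gene length, so levels are compared between libraries and not between loci. APL1 to APL3, and the synthases, are gene families whose reads could have been split between loci, and each member's value is uncertain to that extent. How well reads match an Arabidopsis locus may also differ between species, which was not measured. Leaf chloroplast markers summed to between 23130 and 85380 RPM in every library. Root hair markers summed to at most 5.24, flower markers to at most 12.0 and seed markers to at most 0.766 RPM, and phloem companion cell markers to 120 to 830 RPM. A whole leaf holds many cell types, and fewer cells of a type and less RNA per cell cannot be told apart.

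**Figure D1:**
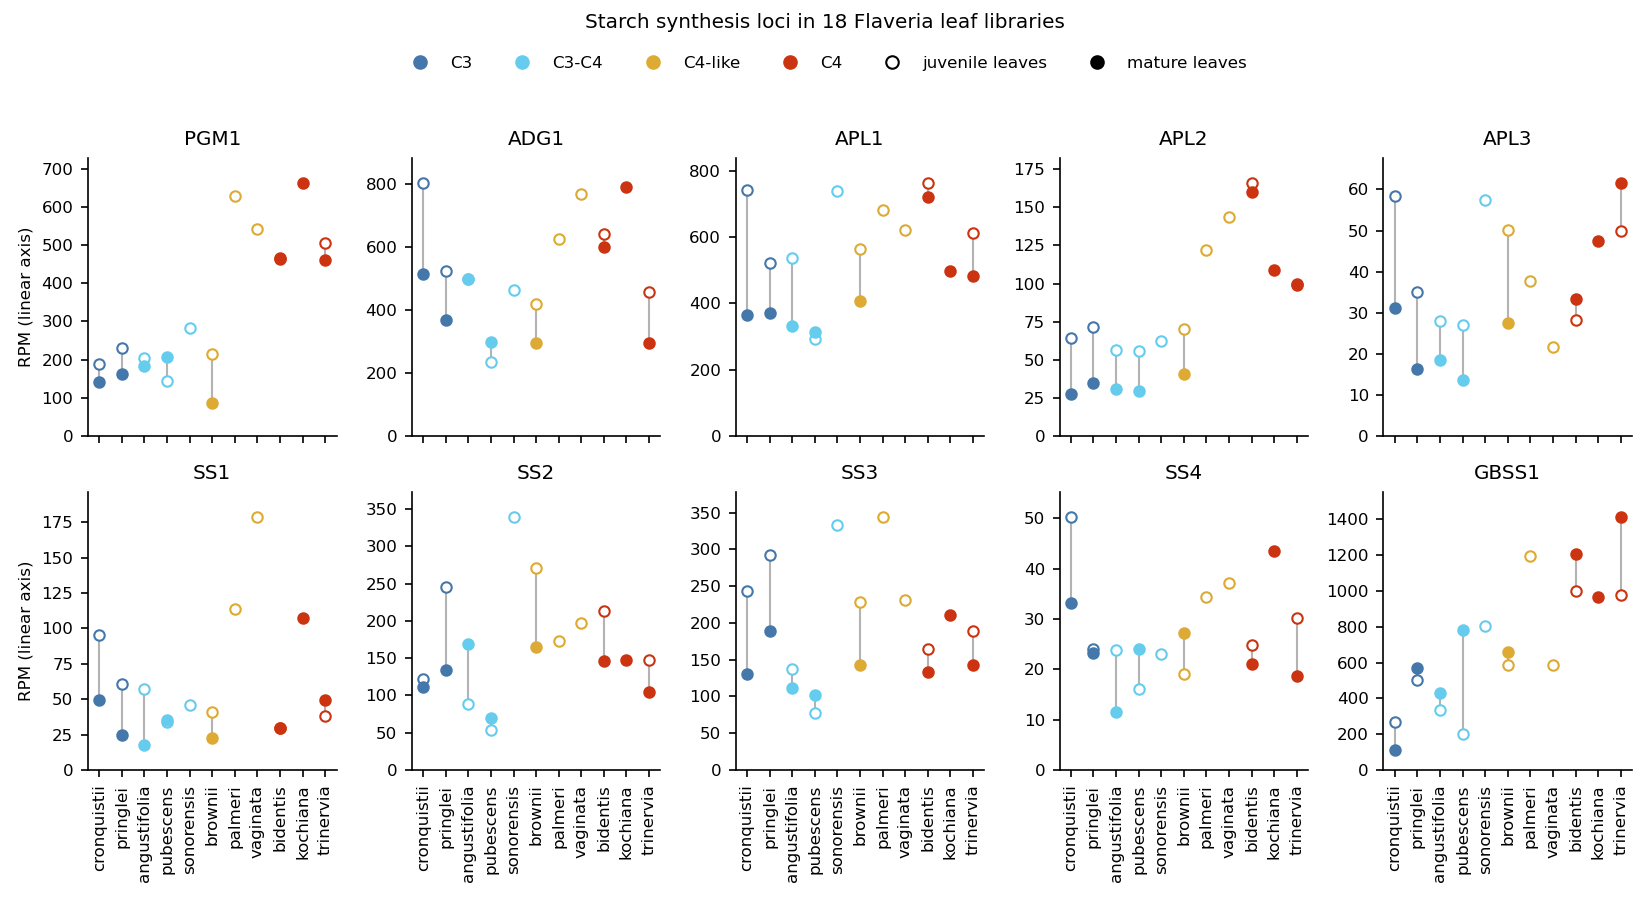
RPM of the 10 starch synthesis loci on linear vertical axes, each starting at 0, in 18 libraries of 11 species ordered by photosynthetic type (colours). Open circles are juvenile and filled circles mature leaves, each 1 library, and grey lines join the stages of a species; PGM1 and APL2 are higher in F. palmeri, F. vaginata, F. bidentis, F. kochiana and F. trinervia than in all other libraries.

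Between the C4-type and the C3-type species, APL2 was called higher in the C4-type, at 2.26 times its C3-type level on average. PGM1 and GBSS1 gave estimates of a like size that did not pass the test, and the estimates for the other 7 loci were smaller. The test used limma on log2(RPM + 1), with the leaf stage and the 4 types as terms and the species as a random block. The Benjamini-Hochberg adjustment ran over all 14479 loci, and an adjusted p under 0.05 was a call. Of all loci tested, 0.974% were called higher in the C4-type species, and of the 10 members 1 was. The median log2 difference was 0.34 over the members and -0.00069 over all loci, and all 10 member estimates were above 0.

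APL2 encodes a large subunit of ADP-glucose pyrophosphorylase that Arabidopsis leaves use less than APL1. In juvenile leaves of the C3-type species, APL2 was 64.1 RPM in F. cronquistii, 71.3 in F. pringlei, 56.6 in F. angustifolia, 55.7 in F. pubescens and 62.5 in F. sonorensis. In juvenile leaves of the C4-type species it was 70.1 in F. brownii, 122 in F. palmeri, 144 in F. vaginata, 166 in F. bidentis and 98.9 in F. trinervia. The C3-type libraries lay within a narrow band, and F. brownii alone of the C4-type libraries fell inside it, below F. pringlei. In mature leaves APL2 was 27.3 in F. cronquistii, 35.1 in F. pringlei, 31.1 in F. angustifolia and 29.8 in F. pubescens. It was 40.9 in F. brownii, 160.1 in F. bidentis, 109 in F. kochiana and 99.8 in F. trinervia. The mature groups did not overlap, which 3.08% of all loci showed in this direction, and F. brownii was just above the C3-type leaves. The difference over both stages was 1.17 on the log2 scale (SE 0.25, 95% interval 0.64 to 1.71, 18 libraries of 11 species, limma adjusted p = 0.0207).

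The APL2 call was lost when any one of 6 species was left out, while the size of the difference moved little. Leaving out F. angustifolia, F. bidentis, F. cronquistii, F. palmeri, F. pubescens or F. vaginata moved the limma adjusted p of APL2 to between 0.0581 and 0.110, with log2 differences between 1.07 and 1.16. With the stages of a species averaged to 1 value, the difference was 1.20 (limma adjusted p = 0.0456). With TMM scaling in place of the deposited scaling, APL2 was called at a log2 difference of 1.18 (limma adjusted p = 0.0381), when 0.83% of all loci were called higher.

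PGM1, plastid phosphoglucomutase, was high in the clade A species and not in F. brownii. In juvenile C3-type leaves it was 189.8 RPM in F. cronquistii, 232 in F. pringlei, 205 in F. angustifolia, 145 in F. pubescens and 283 in F. sonorensis. In juvenile C4-type leaves it was 215 in F. brownii, 630.0 in F. palmeri, 543 in F. vaginata, 463 in F. bidentis and 506 in F. trinervia. F. brownii lay among the C3-type species, and the other C4-type species lay well above them. In mature leaves PGM1 was 143 in F. cronquistii, 163 in F. pringlei, 182 in F. angustifolia and 206 in F. pubescens. It was 85.3 in F. brownii, the lowest of all 18 libraries, and 465 in F. bidentis, 662 in F. kochiana and 462 in F. trinervia. The difference of 1.09 (SE 0.33, 95% interval 0.40 to 1.79) did not pass the test over all species (limma adjusted p = 0.134). Without F. brownii it was 1.50 and passed, with a limma adjusted p of 0.00140, and 1.65% of all loci were then called higher. That leave-out removes the C4-type species with the lowest PGM1 values and leaves only clade A species in the C4-type. Its outcome is thus not independent of the values already seen. With edgeR on the recovered reads of all species, which took the libraries of a species as independent, PGM1 was called at 1.16 (adjusted p = 0.0401), as were 2.58% of all loci.

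Split by ancestry, APL2 and PGM1 were each higher in all 7 clade A libraries than in all 11 other libraries, a split that 0.622% of all loci showed and that was examined after the values were seen. For PGM1 the lowest clade A library had 462 RPM and the highest other library 283. For APL2 those values were 98.9 and 71.3. No member was lower in all 7 clade A libraries than in all others, as 0.387% of all loci were.

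GBSS1, which makes amylose, ran from 114 to 1413 RPM over the 18 libraries. In juvenile C3-type leaves it was 269 in F. cronquistii, 503 in F. pringlei, 333 in F. angustifolia, 200.0 in F. pubescens and 806 in F. sonorensis. In juvenile C4-type leaves it was 587 in F. brownii, 1195 in F. palmeri, 588 in F. vaginata, 999 in F. bidentis and 979 in F. trinervia. The groups overlapped through F. sonorensis, which was above F. brownii and F. vaginata. In mature leaves it was 114 in F. cronquistii, 569 in F. pringlei, 429 in F. angustifolia and 783 in F. pubescens, against 657 in F. brownii, 1205 in F. bidentis, 969 in F. kochiana and 1413 in F. trinervia. These groups overlapped through F. pubescens. The difference of 1.24 (SE 0.41, 95% interval 0.39 to 2.09) did not pass the test (limma adjusted p = 0.170). The low C3-type libraries of F. cronquistii, F. angustifolia and F. pubescens juvenile leaves also had low levels of the clock genes CCA1 and LHY, given with the correlations, whose part in the difference was not tested.

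The small subunit ADG1 and APL1, the main large subunit of Arabidopsis leaves, were not called by type. ADG1 was 505 ± 203 RPM (SD, n = 5 species) in juvenile C3-type leaves and 583 ± 143 (n = 5) in juvenile C4-type leaves. Its log2 difference was 0.24, with a 95% interval of -0.33 to 0.81. F. cronquistii juvenile leaves had the highest ADG1 value, 803, and F. pubescens juvenile leaves the lowest, 234. APL1 was 566 ± 185 and 647 ± 76.5 in the same groups, and its difference was 0.35, with an interval of -0.13 to 0.82. In mature leaves APL1 was 364 in F. cronquistii, 370.3 in F. pringlei, 330.2 in F. angustifolia and 315 in F. pubescens. It was 405 in F. brownii, 721 in F. bidentis, 496 in F. kochiana and 483 in F. trinervia. These groups did not overlap, which 3.08% of all loci showed in this direction. In mature leaves alone APL1 was not called (limma adjusted p = 0.659). APL3, a large subunit that in Arabidopsis responds to sugar, differed by 0.30 (interval -0.36 to 0.95).

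The soluble synthases showed no difference by type that passed the test, and their intervals were wide. The log2 differences were 0.47 for SS1 (interval -0.41 to 1.35), 0.32 for SS2 (-0.41 to 1.05), 0.21 for SS3 (-0.37 to 0.80) and 0.21 for SS4 (-0.38 to 0.81). SS1, which builds short chains in Arabidopsis, instead separated species within clade A. It was 113 RPM in F. palmeri, 179 in F. vaginata and 107 in F. kochiana. In F. bidentis it was 29.5 in both stages, and in F. trinervia 37.8 in juvenile and 49.3 in mature leaves. The other species ran from 17.9 in mature F. angustifolia to 95.0 in juvenile F. cronquistii. SS2 and SS3 extend chains of intermediate and greater length, and both were lowest in F. pubescens juvenile leaves, at 53.4 and 77.8 RPM. Both were high in F. sonorensis, at 339 and 333 RPM. SS2 was also high in F. brownii juvenile leaves, at 271, and SS3 in F. palmeri, at 344. SS4, needed in Arabidopsis for normal granule initiation, ran from 11.5 in mature F. angustifolia to 50.2 in juvenile F. cronquistii.

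**Figure D2:**
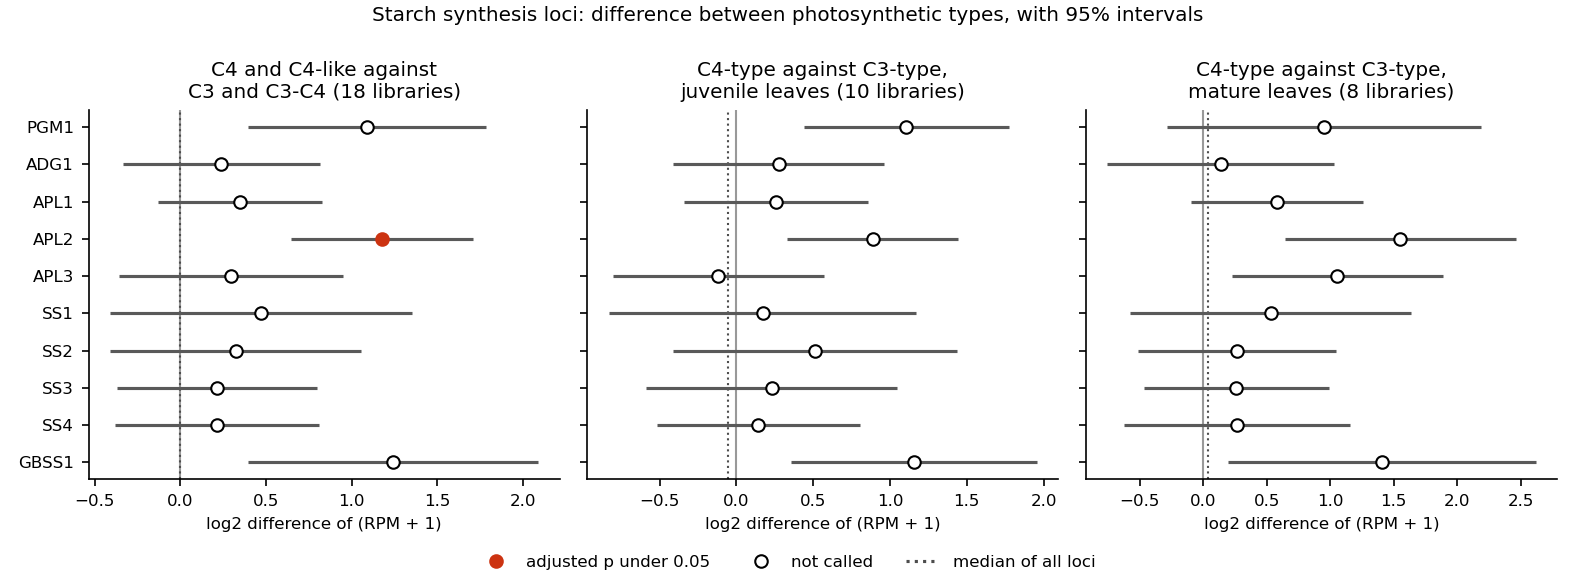
Log2 difference of (RPM + 1) between C4-type and C3-type species for the 10 loci, over all 18 libraries, in 10 juvenile and in 8 mature libraries, with 95% intervals from limma. Filled red marks have an adjusted p under 0.05, and the dotted line is the median of all loci; APL2 over all libraries, at 1.17, is the only call.

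Each stage was also tested alone, with 1 library per species. In juvenile leaves 0.248% of all 14536 loci tested were called higher in the C4-type species, and of the members 0 were by limma, with 3 at an unadjusted p under 0.05. Counts at an unadjusted p, here and below, are given for members only. They cannot be set against the shares of all loci, which are at an adjusted p. The log2 differences were 0.89 for APL2 (limma adjusted p = 0.232), 1.16 for GBSS1 (0.282) and 1.11 for PGM1 (0.208). Without F. brownii 2 of the 10 were called, APL2 at 1.06 (limma adjusted p = 0.0422) and PGM1 at 1.37 (0.0167), when 1.08% of all loci were. F. brownii had the lowest C4-type value of both loci, so these calls are not independent of the values already seen. No member was higher in every C4-type than in every C3-type juvenile library, as 0.949% of all loci were.

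In mature leaves 0.0288% of 13909 loci were called higher, and 0 members were by limma, with 3 at an unadjusted p under 0.05. The differences were 1.55 for APL2 (limma adjusted p = 0.286), 1.06 for APL3 (0.476), 1.40 for GBSS1 (0.534) and 0.95 for PGM1 (0.705). Without F. brownii, which had the lowest C4-type value, APL2 was called at 1.93 (limma adjusted p = 0.0269), as were 0.538% of all loci. Only clade A species then remain in the C4-type, and that call too is not independent of the values already seen. APL1 and APL2 were higher in every C4-type than in every C3-type mature library, against the 3.08% of all loci given above. APL3 overlapped only through F. cronquistii, at 31.2 RPM, which was above the 27.6 of F. brownii. In these mature leaves the chloroplast markers summed to 24516 to 39841 RPM in the C4-type and 47126 to 85380 in the C3-type species, without overlap, and their part in the differences was not tested.

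Single types were compared with C3 in the same limma fit. In the C4 against the C3 species, 0.801% of all loci were called higher and 0 of the members were (3 at an unadjusted p under 0.05, and 2 called by edgeR, as were 4.29% of all loci). The differences were 1.49 for APL2 (limma adjusted p = 0.0532), 1.80 for GBSS1 (0.160) and 1.58 for PGM1 (0.125), and the median of all loci was -0.12 (-0.0066 with TMM scaling). In the C4-like against the C3 species 0.2% of all loci were called in either direction and 0 members (1 at an unadjusted p under 0.05), with 0.77 for APL2, 1.34 for GBSS1 and 0.75 for PGM1. In the C3-C4 against the C3 species 0% of all loci were called and 0 members (0 at an unadjusted p under 0.05). APL2 differed there by -0.09 (95% interval -0.86 to 0.69), PGM1 by 0.15 (-0.87 to 1.16) and GBSS1 by 0.65 (-0.58 to 1.89). These comparisons share the C3 species.

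Of 21 other genes of starch synthesis and its supply, 18 could be tested. Between C4-type and C3-type species 1 of the 18 was called, PPA6, in the higher direction, where 0.974% of all loci were called. PPA6 is the plastid pyrophosphatase, which removes pyrophosphate, including that released by ADP-glucose pyrophosphorylase. It is not specific to starch synthesis. It was 522 RPM in F. cronquistii, 514 in F. pringlei, 936 in F. angustifolia, 608 in F. pubescens and 545 in F. sonorensis juvenile leaves. It was 1099.9 in F. brownii, 2244 in F. palmeri, 1989 in F. vaginata, 2193 in F. bidentis and 1787 in F. trinervia. The juvenile groups did not overlap, which 0.949% of all loci showed in this direction. PPA6 differed by 1.83 (SE 0.27, limma adjusted p = 0.00120). It differed by 1.57 in juvenile leaves alone (limma adjusted p = 0.0315) and by 2.35 between C4 and C3 species (0.00489). In mature leaves alone the difference was 2.06 (limma adjusted p = 0.174) and between C4-like and C3 species 1.67 (0.135), and neither passed.

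Mature leaves were then compared with juvenile leaves of the same species. On the deposited scale the large subunits APL1, APL2 and APL3 fell on average over the species, and GBSS1 was the only member with an estimate above 0. The median of all loci was -0.31 and that of the members -0.35, and relative to all loci APL1 stood at -0.12, APL2 at -0.37 and APL3 at -0.23. Of all 14500 loci tested, 37.6% were called lower in mature leaves, and of the members 3 of 10 were. APL1 fell by 0.43 on the log2 scale (SE 0.16, limma adjusted p = 0.0453), APL2 by 0.68 (SE 0.18, 0.00869) and APL3 by 0.54 (SE 0.20, 0.0425). With TMM scaling the median of all loci was near 0, 21.8% of loci were called lower, and 0 members were called by limma (0 at an unadjusted p under 0.05). By edgeR 0 members were called as well, and 21.1% of loci were called lower. Under TMM scaling APL1 stood at -0.08, APL2 at -0.34 and APL3 at -0.20. ADG1, SS2, SS4 and PGM1 changed sign under it, from -0.29, -0.21, -0.21 and -0.29 to 0.05, 0.13, 0.12 and 0.06. SS1 at -0.60 and SS3 at -0.40 did not pass on the deposited scale (limma adjusted p = 0.0527 and 0.0649).

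No member was lower in mature leaves of all 7 species, while 28.5% of all loci were. APL2 was lower in 6 of 7. It went from 64.1 to 27.3 RPM in F. cronquistii, from 71.3 to 35.1 in F. pringlei, from 56.6 to 31.1 in F. angustifolia, from 55.7 to 29.8 in F. pubescens and from 70.1 to 40.9 in F. brownii. In the C4 species it stood at 166 and 160.1 in F. bidentis and at 98.9 and 99.8 in F. trinervia. The species with the larger drops were thus the C3-type species and F. brownii. APL3 rose from 28.3 to 33.3 RPM in F. bidentis and from 49.9 to 61.5 in F. trinervia, and fell in the other 5 species. The stage change of APL2 differed between C4-type and C3-type species by 0.72 (95% interval 0.03 to 1.40), which did not pass (limma adjusted p = 0.698). Estimates of a like size were 0.76 for APL3 (-0.03 to 1.54) and 0.79 for SS1 (-0.19 to 1.77). SS2 stood at -0.65 (-1.54 to 0.23), and ADG1, SS3 and PGM1 were also below 0. In that comparison 0 members were called by limma (1 at an unadjusted p under 0.05), as were 0% of all loci, whose median was 0.13 (0.016 with TMM scaling).

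GBSS1 was higher in mature leaves of 6 of 7 species. It went from 200.0 to 783 RPM in F. pubescens, and F. cronquistii went the other way, from 269 to 114. The average difference of 0.32 (95% interval -0.28 to 0.92) did not pass (limma adjusted p = 0.353), nor did 0.67 under TMM scaling (0.0957). Mature values were also higher than juvenile ones in F. pubescens for PGM1, ADG1, APL1, SS1, SS2, SS3 and SS4. For ADG1, APL1 and SS3 it was the 1 species of 7 in that direction, and for the other loci 1 or 2 more species shared it. Its summed RPM of the 10 members went from 1136 in juvenile leaves, the lowest of all libraries, to 1875 in mature leaves. In F. brownii PGM1 went from 215 to 85.3.

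Markers of dividing cells summed to 21.8 to 90.9 RPM in juvenile and 0.323 to 9.72 RPM in mature leaves, so the stages did not overlap, and CYCB1;1 was at 0 in all mature C4-type libraries. Their part in the stage results was not tested.

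**Figure D3:**
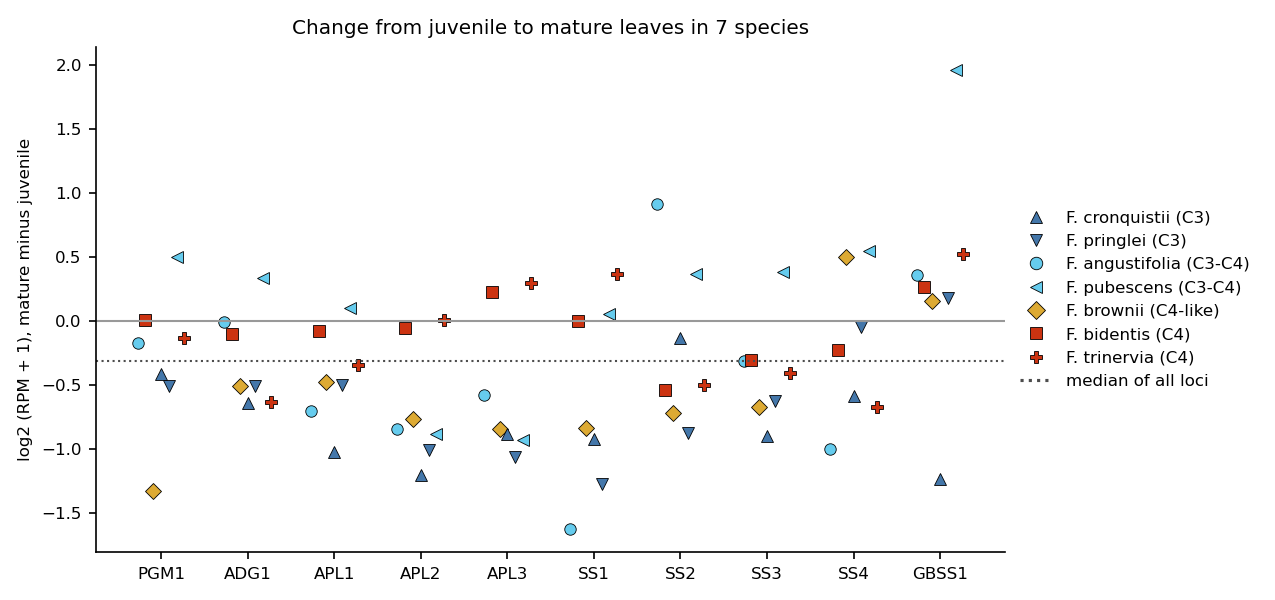
Log2 change of (RPM + 1) from juvenile to mature leaves for the 10 loci in 7 species (symbols, coloured by type), on the deposited scale, with 1 value per species. The dotted line is the median change of all loci, -0.31; GBSS1 is above 0 in 6 of 7 species and APL2 below 0 in 6 of 7.

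Of the 18 other pathway genes tested, 8 fell in mature leaves and 0 rose, against the same 37.6% of all loci. ISA1, a debranching enzyme that shapes amylopectin, fell by 1.71 (limma adjusted p = 2.65e-05). SS5, a synthase-like protein involved in granule initiation in Arabidopsis, fell by 1.23, the granule protein ESV1 by 1.14 and the granule initiation protein PTST3 by 1.00. LESV, related to ESV1, fell by 0.87, the thioredoxin reductase NTRC by 0.79, the ATP carrier NTT2 by 0.70 and PPA6 by 0.69. With TMM scaling 5 of these, ISA1, SS5, ESV1, PTST3 and LESV, were still called lower. PTST1, which brings GBSS1 to the granule in Arabidopsis, was then called higher at 0.59 (limma adjusted p = 0.0242), as were 23.2% of all loci, against 0.25 (0.304) on the deposited scale.

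Ratios within a library do not depend on its scaling, so they were compared across libraries. Gene length and the match of reads to an Arabidopsis locus may differ between species. They need not cancel in these ratios, which was not tested. APL2 made up 6.46% to 14.8% of the reads of the 3 large subunits in C3-type libraries. It made up 8.62% to 10.3% in F. brownii and 13.0% to 18.3% in clade A. The ranges met through F. pubescens juvenile leaves, at 14.8%. In mature leaves the C3-type species reached 8.31%, and the C4-type species began at 8.62%, with medians of 8.25% and 16.1%. The ratio of ADG1 to the summed large subunits ran from 0.458 in mature F. trinervia to 1.31 in mature F. angustifolia. In juvenile leaves its median was 0.803 in the C3-type and 0.672 in the C4-type species, with overlap.

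GBSS1 relative to the summed soluble synthases ranged more widely. It was higher in mature than in juvenile leaves of 6 of the 7 species, all but F. cronquistii, which had the lowest values at 0.525 and 0.351. The highest were in mature leaves of F. trinervia at 4.48, F. bidentis at 3.65 and F. pubescens at 3.40. SS1 made up 27.7% of the soluble synthase reads in F. vaginata and 21.1% in F. kochiana, against 6.83% and 8.94% in juvenile and mature F. bidentis. Shares between these included 17.1% in F. palmeri and 15.6% in mature F. trinervia. Juvenile leaves of F. cronquistii, F. angustifolia and F. pubescens each had 18.6%, and the lowest share was 5.80% in mature F. angustifolia.

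**Figure D4:**
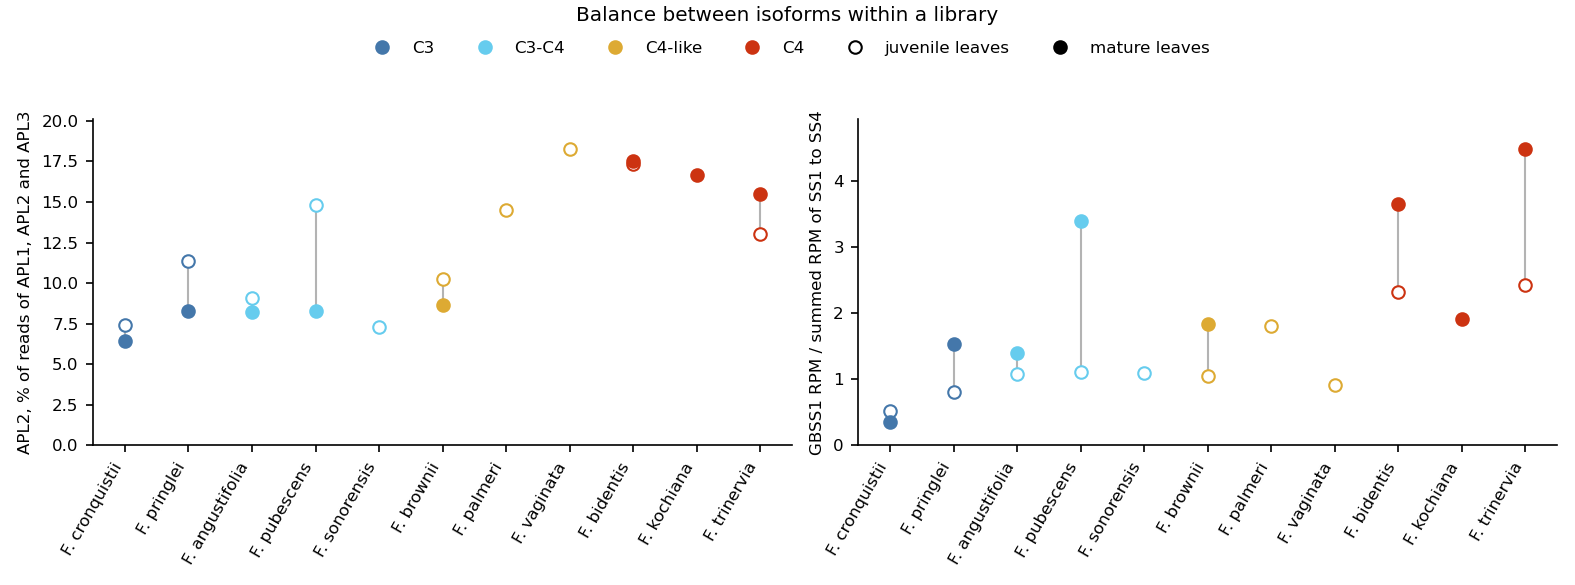
Left, APL2 as a percentage of the reads of APL1, APL2 and APL3; right, GBSS1 RPM divided by the summed RPM of SS1 to SS4, per library, on linear axes starting at 0. Open circles are juvenile and filled circles mature leaves, coloured by type; the APL2 share runs from 13.0% to 18.3% in clade A, and the GBSS1 ratio is highest in mature F. trinervia at 4.48.

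Across the 18 libraries the members moved together loosely. Pearson correlations of log2(RPM + 1) over the 45 pairs ran from -0.02 to 0.84 with a median of 0.44. The closest pair was APL2 and PGM1, followed by APL1 and APL2 at 0.76 and SS2 and SS3 at 0.76, and the loosest was SS4 and GBSS1. The 18 libraries come from 11 species, 7 of them with both stages, and share the deposited scaling, so these are descriptions. The locus most like each member was sought among all tested loci. APL2 was closest to AT5G52100 (r = 0.94) and PPA6 (0.94), and PGM1 to AT3G56160 (0.92) and AT4G30490 (0.90). ADG1 was closest to AT2G01450 (0.86) and PGI1 (0.85), which makes the glucose 6-phosphate that PGM1 uses. APL1 was closest to AT2G23800 (0.91) and AT3G12150 (0.86), and APL3 to AT3G10405 (0.86) and AT1G67280 (0.82). SS1 was closest to AT4G27430 (0.90) and AT1G60070 (0.90), SS3 to AT2G25050 (0.88) and AT5G58140 (0.88), and SS4 to AT4G35905 (0.84) and AT3G59410 (0.83). GBSS1 was closest to AT1G68520 (0.89) and AT5G17300 (0.86).

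SS2 was closest to AT2G46830, the clock gene CCA1 (0.79), and to AT2G41340 (0.78). CCA1 and its relative LHY are expressed around dawn in Arabidopsis, where they regulate GBSS1, and TOC1, LUX, GI and ELF4 are expressed later in the day. These clock genes were examined after the values were seen. GBSS1 correlated with LHY at 0.75 and with CCA1 at 0.66 (n = 18), and SS2 with LHY at 0.73. With the later genes TOC1, LUX, GI and ELF4, the correlations of GBSS1 were -0.57, -0.37, -0.24 and -0.11, and those of SS2 were 0.07, -0.44, -0.16 and -0.07. Such correlations were not particular to GBSS1 and SS2. SS3 correlated with CCA1 at 0.64, with LHY at 0.58 and with LUX at -0.63, and APL1 at 0.53, 0.45 and -0.52. The other members ran from -0.07 for SS1 to 0.40 for APL2 with CCA1. TOC1, LUX and ELF4 were low, at 0.306 to 5.65, 0.787 to 5.81 and 0 to 2.04 RPM, and ELF4 had at most 13 reads in a library. CCA1 was at most 6.61 RPM in both stages of F. cronquistii, F. angustifolia and F. pubescens, and between 12.5 and 116 in the other libraries. Of the 6 libraries of those species, 5 had the lowest GBSS1 values of all. The other, F. pubescens mature leaves, had CCA1 at 6.01 and GBSS1 at 783 RPM, above both F. brownii and both F. pringlei libraries. CCA1 and LHY summed to 8.55 to 315 RPM in juvenile and 11.7 to 129 RPM in mature C3-type leaves, and to 57.7 to 131 and 84.5 to 129.9 RPM in C4-type leaves. The hour of sampling was not given in the sources used here, and the part of these clock genes in the levels of GBSS1, SS2 and the other members was not tested.

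**Figure D5:**
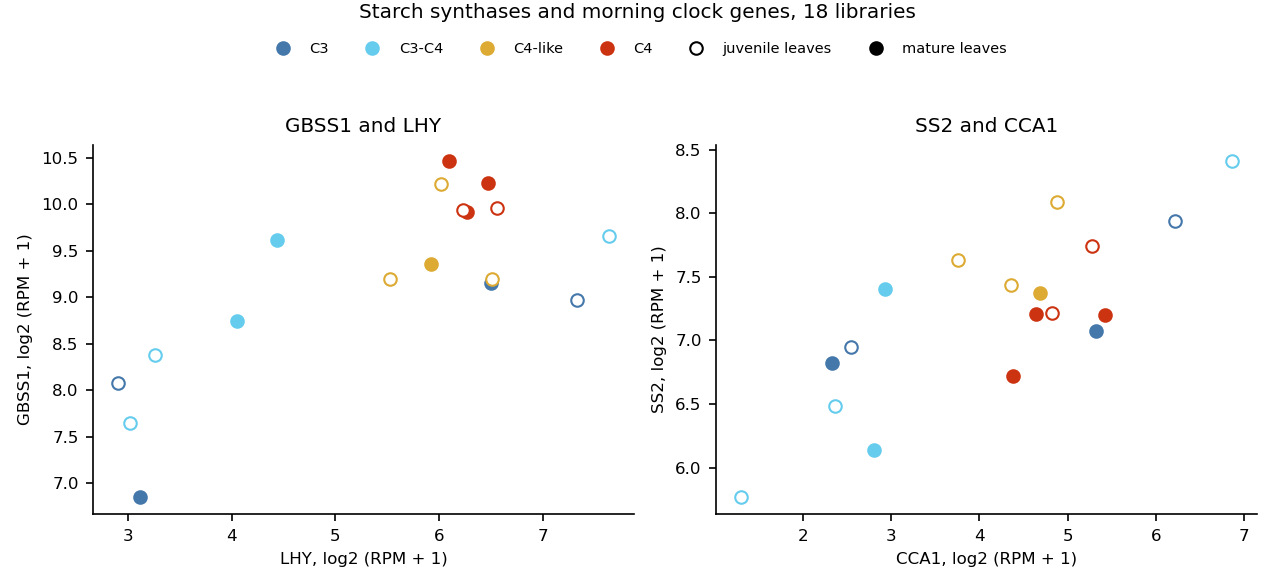
Log2(RPM + 1) of GBSS1 against LHY (left) and of SS2 against CCA1 (right) in 18 libraries, coloured by type, open for juvenile and filled for mature leaves. The Pearson correlations are 0.75 and 0.79, given as descriptions. The lowest and the highest values of both clock genes are in C3 and C3-C4 libraries. The C4-like and C4 libraries lie between these extremes, with CCA1 at 12.5 to 41.9 RPM and LHY at 45.3 to 93.3 RPM. CCA1 values of 6.61 RPM or less occur in C3 and C3-C4 libraries only.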

How the data were processed

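RPM values (reads per 1e+06 assigned reads of a library) for Arabidopsis loci in the 18 Flaveria libraries were deposited by the authors as 1 table. Build TAIR10 is named per the submitters' processing notes, and the aligner and counting rule are not given in the sources used here. All values (100%) were whole multiples of 1 read, within 0.001 of a read, so read counts were recovered.

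Tests used limma 3.58.1 in R 4.3.3 on log2(RPM + 1), with variances moderated along a trend in mean level. Loci entered a test if they averaged 2 RPM or more over its libraries. All 10 members passed. Species was a fixed block for stage, and a random block with correlation 0.49 for type. Stages were paired by species, as labelled. Fold changes on this scale understate changes of low loci. P-values are two-sided. Alternatives were TMM scaling, edgeR 4.0.16 (quasi-likelihood test) on recovered counts, other pseudocounts, no filter, and leaving out each species. The scripts were tested on simulated data. Members and lists were chosen with earlier results of these data known. All members were named, pathway genes if called (PTST1 with TMM scaling only), and for each member the 2 loci most correlated with it.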

Additional observations from a re-analysis of the deposited data

Results flagged for a closer look

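Of 50 groups of 4 to 7 values tested for a value far from the others, 2 were marked, and chance marks about 1 in 20. SS3 in mature leaves of C4-type species was 211 RPM in F. kochiana, against 143 in the next library. That gap was 0.871 of the range of the 4 libraries, above Dixon's critical value for 4 values. SS4 in juvenile leaves of C3-type species was 50.2 RPM in F. cronquistii, against 24.1 in the next library. That gap was 0.767 of the range of the 5 libraries, above the critical value for 5.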

How the results depend on the processing

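For leaf stage, 3 members were called as deposited, where 37.6% of all loci were called lower. The member count was 1 with no filter on low values, 0 with TMM scaling (21.8% of all loci lower) and 0 with edgeR (21.1%). It was 0 without the species block and 1 to 4 with each species left out. It was 1 without F. angustifolia, F. brownii, F. cronquistii or F. pringlei and 4 without F. bidentis or F. pubescens. The shares of all loci called without the filter, without the block and in the leave-outs are not given here. Those member counts thus cannot be set against all loci or read as a result about the members. With TMM scaling the log2 changes reversed to 0.054 for ADG1, 0.13 for SS2, 0.12 for SS4 and 0.056 for PGM1, and with edgeR to 0.056, 0.13, 0.13 and 0.067.

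For C4-type against C3-type species, 1 member was called (0.974% of all loci higher) and 2 with edgeR (2.58%). The count was 0 to 2 with each species left out (1.65% of all loci higher without F. brownii), and 2 without both clade B species. That last alternative was chosen after seeing the data, and SS2 reversed under it to -0.034. For C4 against C3 species the count was 0 (0.801% of all loci higher), but 1 with a pseudocount of 5, 1 with no filter and 2 with edgeR (4.29%). It was 0 to 2 with each species left out (2 without F. brownii). For juvenile leaves the count was 0 (0.248% of all loci higher), but 0 to 2 with each species left out (1.08% without F. brownii) and 1 without both clade B species. For mature leaves the count was 0 (0.0288% of all loci higher), but 0 to 1 with each species left out (0.538% without F. brownii) and 1 without both clade B species. Shares under the other alternatives are not given here. For C3-C4 against C3 species, leaving out each species gave -0.12 to 1.45 for GBSS1, below 0 without F. cronquistii, and -0.20 to 0.044 for APL2, above 0 without F. pringlei. The causes were not tested.

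The limits are those of 1 library per species and stage. A type rests on 2 or 3 species, stages pair within 7 species, and the counting rule for related loci is not known. A leave-out of 1 species removes both of its libraries.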
